A study of Mus musculus with 2 samples.

Results

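The genes described here encode the receptor for parathyroid hormone (PTH), the G protein it couples to, and the enzymes, kinase subunits and transcription factors that make, break down and read cyclic AMP (cAMP) in the cell. They were chosen by name from knowledge of the pathway, 45 genes in all, with earlier results of these data known. A gene was kept where at least 1 probe set of the array was annotated to it and to no other gene, which held for 41 of them, out of 18193 genes on the array. Pthlh, Pde4c, Rapgef4 and Atf1 had no such probe set in the annotation used and were not analysed here.

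The study compared how products of different prostate cancer lines act on bone-forming cells. Primary mouse osteoblasts, grown in alpha-MEM containing 10% fetal calf serum, were differentiated over 10 days in ascorbic acid at 50 µg/ml with beta-glycerophosphate at 10 mM and were then kept without serum overnight. They next spent 6 hours either in medium conditioned by PC-3 cells or in medium conditioned by MDA-PCa2b cells, both human prostate cancer lines derived from bone metastases. Each culture's RNA went onto 1 Affymetrix mouse array, so there were 2 arrays and no replicates. Strain, age and bone of origin were not stated in the labels, and osteoblasts without tumour-cell medium were not analysed here: "higher" and "lower" always mean the value in PC-3 medium as set against that in MDA-PCa2b medium. Without replicates no error and no p-value for a difference between the media could be given, and each ratio describes these arrays alone.

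PTH and its relative PTHrP, a factor that many tumours release, bind the receptor Pth1r on osteoblasts. The receptor activates the stimulatory G protein, adenylyl cyclases then make cAMP, and phosphodiesterases degrade it. cAMP releases the catalytic subunits of protein kinase A (PKA) from their regulatory subunits, and PKA phosphorylates CREB family factors in the nucleus. In osteoblasts this pathway controls early transcription factor genes, the osteoclast-inducing ligand RANKL and genes of mineralising cells.

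Values are probe set signals on a linear scale. The median signal of each array served as a floor, which was 57.7 with PC-3 medium and 56.7 with MDA-PCa2b medium, and a signal counted as measured only above it. The brightest probe set stood for its gene. Signals of different probe sets depend on their sequences, so levels are compared only between the arrays, never between genes. Both arrays had the same trimmed mean signal (300.0). The ratio of the 3′ to the 5′ probe set was 1.504 with PC-3 medium and 1.399 with MDA-PCa2b medium for beta-actin, and for Gapdh it was 0.72 with PC-3 medium and 0.73 with MDA-PCa2b medium. Of the 41 genes, 34 were measured on both arrays, 2 only in PC-3 medium, 2 only in MDA-PCa2b medium and 3 in neither medium. Over 4921 genes of the whole array with several measured probe sets, log2 ratios within a gene had an SD of 0.24 around the gene's mean. The SD was 0.31 in the lowest tertile of signal and 0.14 in the highest. That scatter lies between probe sets, which can detect different transcripts of a gene, and is not the spread between cultures.

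The pathway genes differed little between the media at the level of the receptor, G protein, cyclases and CREB factors, and more among phosphodiesterases. The phosphodiesterase genes Pde10a, Pde3b and Pde4d were at least 2-fold lower with PC-3 medium, and no pathway gene measured on both arrays was at least 2-fold higher. Rgs4 and Rgs16 were measured only in PC-3 medium, so their ratios are lower bounds, and with a floor at the 25th percentile or with log2(signal + 16) these 2 were at least 2-fold higher. Thus 3 of the 34 genes measured on both arrays passed the 2-fold threshold downwards (8.82%), against 1.68% of all 10649 genes measured on both arrays, and 0 passed it upwards, against 1.90% of all genes. At a threshold of 1.5-fold, 5 were lower, with Pkia and Prkar2b beside those 3, and 0 higher, where 6.23% of all genes were lower and 5.18% higher. The log2 ratio was below 0 for 24 of the 34, or 70.6%, against 55.9% of all genes. Their median log2 ratio was -0.12 (SD over genes 0.46), against -0.04 over all genes (SD 0.44). As the pathway genes were chosen with earlier results of these data known, their shares are not those of an unselected set. In RNA from a whole culture, fewer cells of a type and less RNA per cell cannot be told apart.

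**Figure D1:**
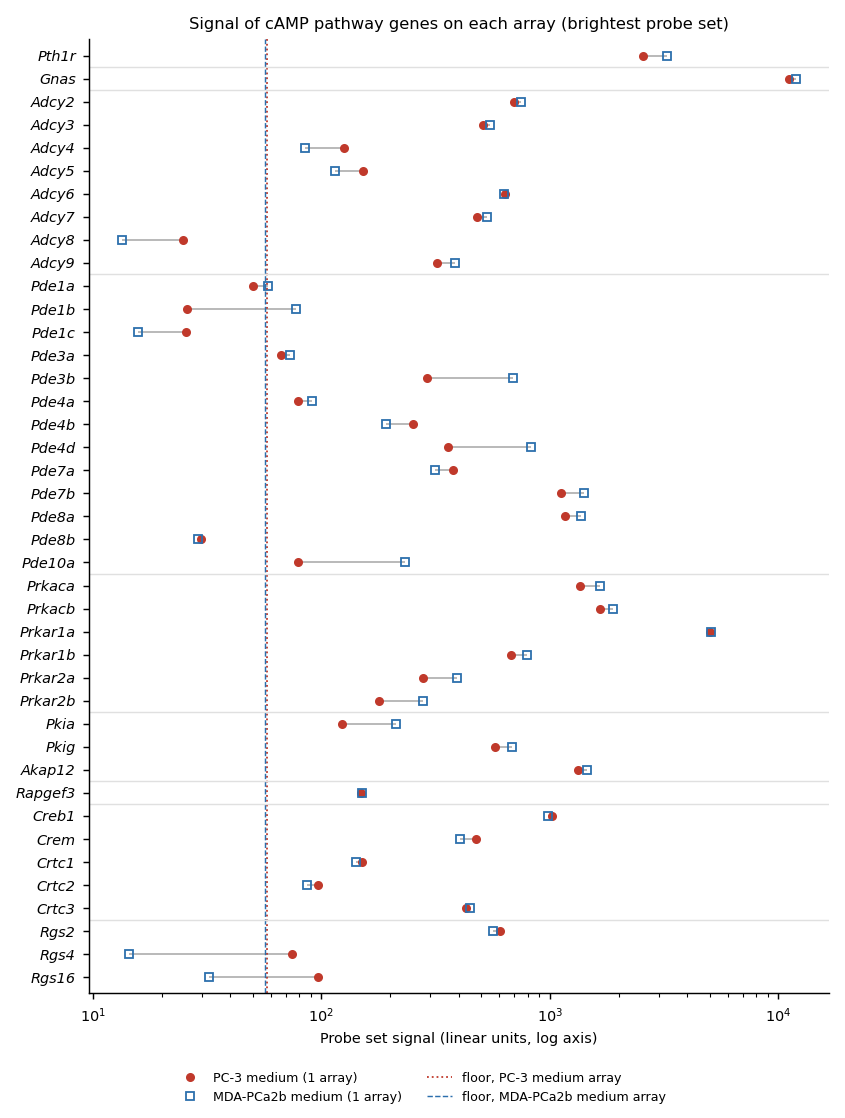
Signal of the brightest probe set of each of the 41 genes on the PC-3 medium array (red circles) and the MDA-PCa2b medium array (blue squares), on a log axis, with the floor of each array as a vertical line and the pathway layers separated by grey lines. Pde3b, Pde4d and Pde10a show the widest gaps among genes measured on both arrays, with the PC-3 medium value on the left.

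The receptor gene Pth1r, the entry point of the pathway in osteoblasts, gave a signal of 2553 with PC-3 medium and 3244 with MDA-PCa2b medium. This was 1.27-fold lower, a log2 ratio of -0.35 from a single probe set, and 15.4% of all genes above the floor had a ratio as low or lower. Gnas encodes the alpha subunit of the stimulatory G protein and, from other promoters of the same imprinted locus, further transcripts. Its brightest probe set gave 11161 with PC-3 medium and 11917 with MDA-PCa2b medium (log2 ratio -0.09). The other probe sets of Gnas above the floor gave log2 ratios of -0.11 and 0.30, the second of these at signals of 124 with PC-3 medium and 101 with MDA-PCa2b medium. The signs differ, and the array does not tell the transcripts of the locus apart.

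Adenylyl cyclases, the membrane enzymes that make cAMP, showed no 1.5-fold difference in either direction among the 7 measured genes, and their median log2 ratio was -0.09. The ratios furthest from 0 were those of Adcy4, a cyclase that responds to G protein beta-gamma subunits, with signals of 125 in PC-3 medium and 84.6 in MDA-PCa2b medium (log2 ratio 0.57), and of Adcy5, a calcium-inhibited form, with 151 in PC-3 medium and 115 in MDA-PCa2b medium (0.40). The second Adcy5 probe set gave 0.09. Adcy9 was on the other side of 0 by all 4 of its probe sets above the floor, with log2 ratios between -0.39 and -0.25. Adcy2, Adcy3, Adcy6 and Adcy7 lay between -0.15 and 0.02 by their brightest probe sets. Probe sets of both signs were found for Adcy3, from -0.10 to 0.37, and for Adcy7, at -0.15 and 0.06. Adcy8, the calmodulin-stimulated form, was below the floor on both arrays.

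Phosphodiesterases end the signal by hydrolysing cAMP. Of the 13 genes on the array, 9 were measured on both arrays. At least 2-fold lower were 3 of these (33.3%), against 1.68% of all genes. With a 75th percentile floor the count was 1 in place of 3. The median log2 ratio of the 9 was -0.24, with 7 of them below 0. Pde10a, which hydrolyses both cAMP and cGMP, had a signal of 79.1 with PC-3 medium and 232 with MDA-PCa2b medium. It was 2.94-fold lower (log2 ratio -1.55, rank 42 from the lowest of the 10649 genes). The PC-3 medium signal was close to the floor. A second Pde10a probe set gave 31.8 with PC-3 medium and 70.4 with MDA-PCa2b medium, which is only a bound of at least 1.22-fold lower, and a further one, at 34.1 with PC-3 medium and 56.9 with MDA-PCa2b medium, was at the floor.

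Pde3b encodes an enzyme that cGMP inhibits and that insulin signalling activates in fat cells. Its single probe set gave 291 with PC-3 medium and 689 with MDA-PCa2b medium, 2.37-fold lower (log2 ratio -1.25, rank 87 from the lowest). Pde4d, which encodes a cAMP-specific enzyme of the rolipram-sensitive group, gave 359.6 with PC-3 medium and 824 with MDA-PCa2b medium. It was 2.29-fold lower (log2 ratio -1.20, rank 100 from the lowest). Both signals of Pde3b and of Pde4d were well above the floor, but each gene had only 1 probe set there, so neither ratio had a second reading on the array.

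The closest relatives of these genes had ratios nearer to 0. Pde3a, at signals of 66.4 with PC-3 medium and 72.6 with MDA-PCa2b medium, had a log2 ratio of -0.13, and Pde4a one of -0.20. Pde4b, a relative of Pde4d that is also expressed in macrophages, had signals of 252 with PC-3 medium and 192 with MDA-PCa2b medium. Its log2 ratio was 0.39 by the brightest probe set and 0.09 by the second. Pde7b and Pde8a, which encode cAMP-specific enzymes not blocked by rolipram, had log2 ratios of -0.34 and -0.24, with every measured probe set below 0. Pde7a had 7 probe sets above the floor whose log2 ratios ran from -0.58 to 0.50, so no direction could be given for it.

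No gene of the calmodulin-activated group was measured on both arrays. Pde1b had a signal of 25.9 with PC-3 medium and 77.7 with MDA-PCa2b medium, a bound of at least 1.35-fold lower. Pde1a had 50.2 with PC-3 medium, below the floor, and 58.6 with MDA-PCa2b medium, just above it. Pde1c and Pde8b were below the floor on both arrays.

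**Figure D2:**
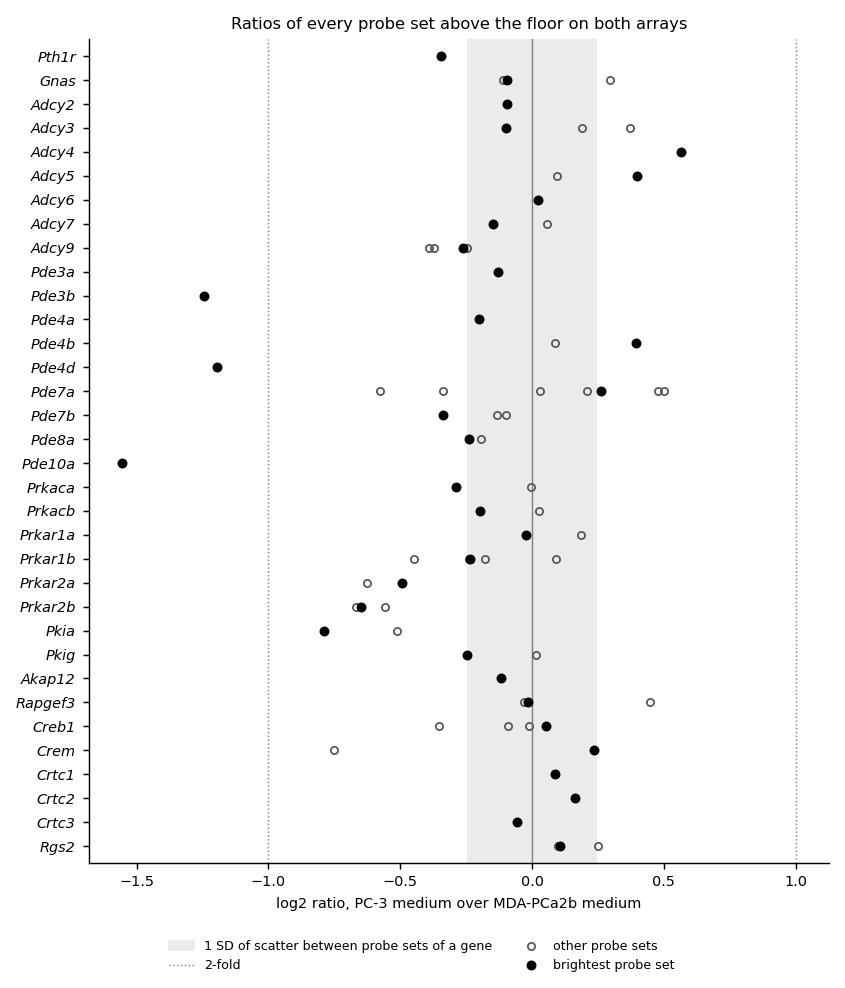
log2 ratio of PC-3 medium over MDA-PCa2b medium for every probe set measured on both arrays, by gene. Filled circles are the brightest probe set of the gene, open circles its other probe sets, the grey band spans 1 SD (0.24) of the scatter between probe sets on either side of 0, and dotted lines mark 2-fold. Among genes with several probe sets shown, Adcy9, Prkar2a, Prkar2b and Pkia lie below the band by each of them, while Pde7a has probe sets on both sides of it.

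PKA is a tetramer of catalytic and regulatory subunits. All 6 subunit genes were measured on both arrays, and their log2 ratios ran from -0.65 to -0.02 with a median of -0.26. The catalytic subunit gene Prkaca gave 1352 with PC-3 medium and 1650.2 with MDA-PCa2b medium (log2 ratio -0.29, and -0.01 by its other probe set). Prkacb, the second catalytic gene, gave 1652 with PC-3 medium and 1896 with MDA-PCa2b medium (-0.20, and 0.02 by its other measured probe set).

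The regulatory subunit genes differed among themselves. The type II genes, whose products are held at membranes and organelles by A-kinase anchoring proteins, were lower by every probe set measured on both arrays. Prkar2b had signals of 178 with PC-3 medium and 279 with MDA-PCa2b medium, 1.57-fold lower, and its 3 probe sets gave log2 ratios from -0.67 to -0.56. Prkar2a had signals of 279 with PC-3 medium and 393 with MDA-PCa2b medium, 1.41-fold lower, and its probe sets gave -0.49 and -0.63. The type I gene Prkar1a, whose product restrains PKA in most cells, had 5006 with PC-3 medium and 5086 with MDA-PCa2b medium (log2 ratio -0.02, and 0.19 by its other measured probe set). Prkar1b, the other type I gene, had -0.23 by its brightest probe set and ran from -0.45 to 0.09 over 5 probe sets. Whether the types differed was not tested, as there was 1 array per medium.

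Pkia encodes a small inhibitor that binds free catalytic subunits and carries them out of the nucleus. Its signals were 123 with PC-3 medium and 213 with MDA-PCa2b medium, 1.73-fold lower (log2 ratio -0.79), and its second probe set gave -0.51. The related inhibitor gene Pkig had log2 ratios of -0.25 and 0.02. Akap12, which encodes the anchoring protein gravin, had 1335 with PC-3 medium and 1447 with MDA-PCa2b medium (-0.12). Rapgef3, the gene of the exchange factor Epac1 that cAMP activates without PKA, had 148 with PC-3 medium and 149.9 with MDA-PCa2b medium (-0.02), although its dimmest measured probe set gave 0.45.

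The CREB factors and their coactivators lay near 0 by their brightest probe sets, with a median log2 ratio of 0.09 over 5 genes and 0 of them 1.5-fold different. Creb1, the founding factor, had 1020.3 with PC-3 medium and 984 with MDA-PCa2b medium (log2 ratio 0.05). Its other 3 probe sets measured on both arrays gave log2 ratios from -0.35 to -0.01, and the mean over its probe sets was -0.10. The coactivator genes Crtc1, Crtc2 and Crtc3 had log2 ratios of 0.09, 0.16 and -0.06. Crem produces activators and, from an internal promoter, the short repressor ICER, which cAMP induces. Its brightest probe set gave 476 with PC-3 medium and 404 with MDA-PCa2b medium (0.24), and its second gave 138 with PC-3 medium and 232 with MDA-PCa2b medium (-0.75). The readings have opposite signs, and which Crem transcripts each detects was not tested.

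RGS proteins shorten G protein signals. Rgs2, which PTH induces in osteoblasts, had signals of 607 with PC-3 medium and 564 with MDA-PCa2b medium (log2 ratio 0.11), and its 3 probe sets gave 0.10 to 0.25. Rgs16 was measured only in PC-3 medium, at 97.0 against 32.1 with MDA-PCa2b medium, which made it at least 1.71-fold higher. All 3 of its probe sets showed this pattern, with bounds on the log2 scale of 0.46 to 0.77. Rgs4 was likewise measured only in PC-3 medium, at 74.1 against 14.4 with MDA-PCa2b medium (at least 1.31-fold higher), and its second probe set gave 72.1 with PC-3 medium and 4.43 with MDA-PCa2b medium. These signals are low, so the true size of both differences is unknown.

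Promoter sequences from RefSeq (build GRCm38.p6) were searched for the cAMP response element, the CREB binding motif, because CREB acts on genes of its own pathway. The letters searched were the half-site TGACG, on either strand, in the 250 bases before each listed start, and the full site TGACGTCA, which contains overlapping half-sites on both strands. Any windows of pathway genes on 1 of the chromosomes were left out, while the windows of all genes kept that chromosome. The windows used covered 36 of the 45 genes, 76 windows in all. Crem was among the genes without a window, so its promoters were not searched. A half-site stood in 21 of the 76 (27.6%), against 5836 of 32851 windows of all genes (17.8%). Windows of a gene can overlap and share a site, as in Gnas and Prkar1a, so they are not independent. The 76 windows came from 36 genes and the 32851 from 27025 genes. The median GC content was 59.6% in the windows of the pathway genes and 52.4% in those of all genes. Of the genes at least 1.5-fold lower, Pde10a, Pde4d and Prkar2b had windows, and 0 of their 5 windows held a half-site. Pde3b and Pkia were not analysed here for sequence. A full site stood in 1 of the 76 windows (1.32%), against 508 windows of all genes (1.55%). One window per gene, that of the most upstream listed start, is shown for the lower genes Pde4d, Pde10a and Prkar2b, then for Rgs2 and Pth1r, whose ratios were small, with half-sites in capitals.

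Pde4d, chr13:108653927-108654176, plus strand: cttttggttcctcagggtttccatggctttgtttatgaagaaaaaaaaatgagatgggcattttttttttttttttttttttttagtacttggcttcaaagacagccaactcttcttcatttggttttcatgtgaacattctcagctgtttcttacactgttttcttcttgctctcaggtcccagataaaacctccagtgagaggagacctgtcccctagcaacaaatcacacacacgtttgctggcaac
Pde10a, chr17:8801495-8801744, plus strand: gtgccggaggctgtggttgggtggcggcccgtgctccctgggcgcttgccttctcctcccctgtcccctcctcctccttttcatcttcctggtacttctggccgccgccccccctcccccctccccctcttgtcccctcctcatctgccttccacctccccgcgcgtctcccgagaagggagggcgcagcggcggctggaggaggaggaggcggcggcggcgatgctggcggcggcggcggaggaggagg
Prkar2b, chr12:32061278-32061527, minus strand: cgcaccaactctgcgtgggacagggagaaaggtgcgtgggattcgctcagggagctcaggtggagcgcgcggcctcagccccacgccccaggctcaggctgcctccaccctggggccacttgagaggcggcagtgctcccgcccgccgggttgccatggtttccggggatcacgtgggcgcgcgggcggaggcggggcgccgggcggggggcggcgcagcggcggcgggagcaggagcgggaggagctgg
Rgs2, chr1:144004150-144004399, minus strand: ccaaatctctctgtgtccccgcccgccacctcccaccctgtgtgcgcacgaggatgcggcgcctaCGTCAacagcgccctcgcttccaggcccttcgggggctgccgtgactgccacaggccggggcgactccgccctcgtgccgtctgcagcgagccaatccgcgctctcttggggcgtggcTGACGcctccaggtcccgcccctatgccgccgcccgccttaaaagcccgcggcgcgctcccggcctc
Pth1r, chr9:110747146-110747395, minus strand: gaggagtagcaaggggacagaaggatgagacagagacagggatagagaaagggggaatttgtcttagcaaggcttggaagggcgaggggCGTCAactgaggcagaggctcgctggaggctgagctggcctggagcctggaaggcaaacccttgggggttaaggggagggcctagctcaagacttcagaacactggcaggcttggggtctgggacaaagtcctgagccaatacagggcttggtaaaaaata
Prkar1a, 30 bases around the full site, chr11:109650889-109650918, plus strand: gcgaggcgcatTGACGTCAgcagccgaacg

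Rgs2 held half-sites in its only window, the first of them 185 bases before the start, and Pth1r held 1, in the window of its most upstream start, 161 bases before it. The only full site in the 76 windows searched was 49 bases before one of the starts of Prkar1a. This is the regulatory subunit gene with nearly equal signals on both arrays. These are matches of letters, not measured binding.

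Genes around the pathway were taken from further lists. Receptors that signal through the same G protein, with their RAMP partners, were mostly below the floor: 4 of the 15 on the array were measured in both media. Ramp1, whose product turns the calcitonin receptor-like receptor into a CGRP receptor, had 319 with PC-3 medium and 832 with MDA-PCa2b medium, 2.61-fold lower by its single probe set. Ptger4, a prostaglandin E2 receptor gene, had 669.5 with PC-3 medium and 443 with MDA-PCa2b medium (log2 ratio 0.59), and Ramp2 had 276 with PC-3 medium and 177 with MDA-PCa2b medium (0.64). Both were chosen after their values were seen.

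Among other G protein subunits, receptor kinases and arrestins, 1 of 20 measured genes was at least 2-fold lower and 1 at least 2-fold higher. Each was 5% of the list, against 1.68% of all genes lower and 1.90% higher. Gnai1, an inhibitory G protein subunit gene whose product opposes the stimulatory one at the cyclases, had 1116 with PC-3 medium and 2764 with MDA-PCa2b medium. It was 2.48-fold lower, and all 3 of its probe sets gave log2 ratios from -1.31 to -1.22. The signals of its relatives Gnai2 and Gnai3, chosen after their values were seen, had log2 ratios of -0.13 and -0.01. Arrb1, which encodes an arrestin that uncouples receptors from G proteins, had 212 with PC-3 medium and 105 with MDA-PCa2b medium, 2.01-fold higher by its single probe set, at the edge of the threshold.

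Of 12 measured genes for other cyclases, phosphodiesterases and CREB partners, 1 was at least 2-fold higher and 0 lower. This was Pde5a, a cGMP-specific phosphodiesterase gene, with 335 in PC-3 medium and 124 in MDA-PCa2b medium (2.70-fold). Against a log2 ratio of 1.43 for the brightest probe set, the others gave 0.98 and 0.78. None of 9 other A-kinase anchoring protein genes or of 7 other RGS genes differed 2-fold. Among the anchoring genes measured on both arrays, Akap7 (log2 ratio 0.72) and Akap10 (0.33) were furthest from 0 by their brightest probe sets. Akap13 had -0.16 by its brightest probe set, but 0.64 and 0.51 by its others. Akap9 likewise had -0.23, but 0.43 and 0.57, and Akap1 had -0.03, but 0.57. Akap6, measured only in PC-3 medium, had a bound of 0.53. Among RGS genes the brightest probe sets furthest from 0 were those of Rgs17 (0.79, with 0.01 by its other probe set) and Rgs9 (0.46). Over all 7 lists of related and target genes, 10 of 85 measured genes passed the 2-fold threshold upwards (11.8%) and 8 downwards (9.41%). The shares over all genes were 1.90% and 1.68%. These lists were chosen with earlier results of these data known, so their shares are not those of an unselected set.

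**Figure D3:**
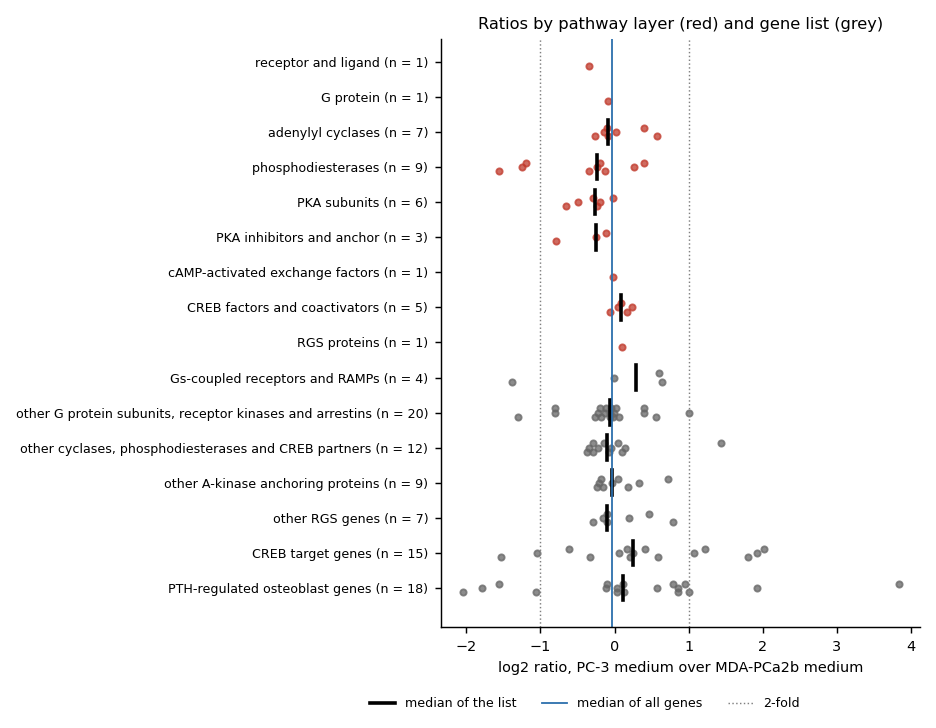
log2 ratio of PC-3 medium over MDA-PCa2b medium for genes measured on both arrays, by layer of the pathway (red) and by list of related genes (grey), 1 point per gene at its brightest probe set. Black bars are medians of lists with more than 1 gene, the blue line is the median of all genes (-0.04) and dotted lines mark 2-fold. The phosphodiesterase layer has 3 points left of the 2-fold line, and the lists of CREB targets and PTH-regulated genes spread widely to both sides.

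Genes that CREB is known to induce were spread to both sides. Of 15 measured, 5 were higher (33.3%) and 2 lower (13.3%) by at least 2-fold, and 1 more was lower as a bound. The shares over all genes were 1.90% higher and 1.68% lower. With a 75th percentile floor 1 gene of the list was higher and 1 lower. The median log2 ratio of the 15 was 0.25. The largest were Cebpb (4.06-fold higher), Junb (3.79-fold higher) and Il6 (3.48-fold higher), as well as the orphan receptor genes Nr4a3 (a log2 ratio of -1.59 as a bound) and Nr4a1 (2.89-fold lower). Other pathways, such as NF-kB and STAT3, also induce genes of this list, and the part of any pathway in these ratios was not tested. Nr4a1, an early target of PTH in osteoblasts, had 179 with PC-3 medium and 518 with MDA-PCa2b medium. Fos, another early target chosen after its values were seen, had 511 with PC-3 medium and 779.7 with MDA-PCa2b medium (log2 ratio -0.61). Per1, Ptgs2 and Dusp1 of the same list, likewise chosen after their values were seen, had 0.58, 0.41 and 0.22 by their brightest probe sets.

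Of 18 measured genes that PTH regulates in osteoblasts, 3 were higher (16.7%) and 4 lower (22.2%) by at least 2-fold. A further 1 was lower as a bound. The shares over all genes were 1.90% higher and 1.68% lower. With a 75th percentile floor 2 genes of the list were higher and 3 lower. The median log2 ratio of the 18 was 0.12. Ccl2, a monocyte chemokine gene, had the highest ratio (14.3-fold), and the Wnt antagonist gene Sfrp4 was 3.80-fold higher. Dkk1, another Wnt antagonist gene, was at least 4.40-fold lower, with 23.5 in PC-3 medium and 254 in MDA-PCa2b medium. Its second probe set gave a bound of -0.31 on the log2 scale. Dmp1, a matrix protein gene of osteocytes, had 426 with PC-3 medium and 1765 with MDA-PCa2b medium. Mef2c, which encodes a transcription factor that drives the sclerostin gene in osteocytes, had 577 with PC-3 medium and 1996 with MDA-PCa2b medium. It was 3.46-fold lower, with 5 probe sets from -2.15 to -1.30 on the log2 scale. PTH raises some genes of this list and represses others, so its median has no single direction.

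**Figure D4:**
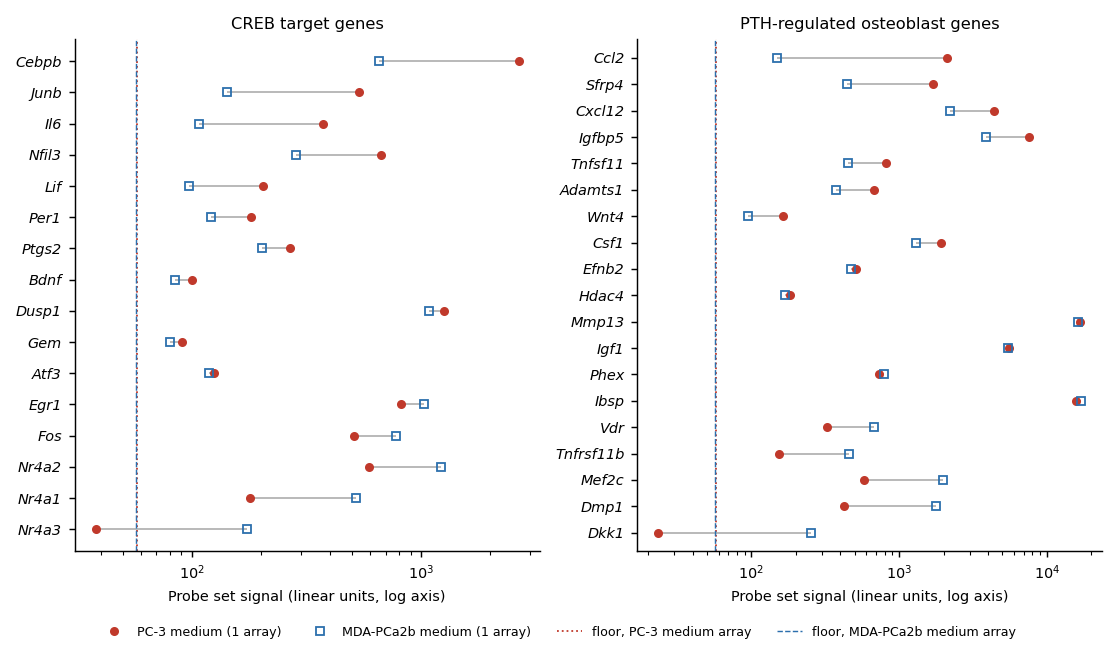
Signals of the CREB target genes (left) and of PTH-regulated osteoblast genes (right) that were above the floor on at least 1 array, with PC-3 medium as red circles and MDA-PCa2b medium as blue squares, on log axes, ordered from the highest to the lowest log2 ratio. Cebpb and Ccl2 stand at the top with the PC-3 medium value on the right, and Nr4a3 and Dkk1 at the bottom with the PC-3 medium value on the left and below the floor.

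The cultures carried osteoblast markers: all 8 of those on the array were measured in both media, with a summed signal of 64499 with PC-3 medium and 73023 with MDA-PCa2b medium. Their median log2 ratio was -0.26, and 2 of the 8 (25%), Ifitm5 and Dmp1, were at least 2-fold lower, against 1.68% of all genes. All 9 macrophage and osteoclast markers on the array were also measured in both media, with summed signals of 23209.8 with PC-3 medium and 22848 with MDA-PCa2b medium and a median log2 ratio of 0.06. All 5 chondrocyte markers were measured in both media too (summed signals of 9359 with PC-3 medium and 10077 with MDA-PCa2b medium), and all 5 had log2 ratios below 0 (median -0.22), with Col10a1 2.61-fold lower. Of 4 adipocyte markers 3 were measured in both media, and the sum over the 4 was 2772 with PC-3 medium and 3021 with MDA-PCa2b medium. The median log2 ratio of the 3 was 0.47, with Fabp4 at 0.98, Adipoq at 0.47 and Lpl at -0.33. Ptprc was measured among 3 blood cell markers. None of 6 endothelial markers was above the floor on either array, and no skeletal muscle marker was on both. The part of these cell types in the ratios of the pathway genes was not tested.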

How the data were processed

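Total RNA of 2 cultures was measured on 2 arrays, 1 per medium, and the source field of the labels set the group (MDA also stands in the title given to the PC-3 medium sample). The authors deposited 1 intensity per probe set, on a linear scale. Per the submitters' processing notes these came from GCOS 1.4 and MAS5. No source used here gave the scaling target or detection calls. Of 45101 probe sets 64 were controls. Of the rest, 34945 had 1 gene in the platform annotation, 932 had several and 9160 were not listed. By Entrez identifier 34741 matched a mouse gene table (GRCm38.p6, for names), and 0 symbols changed.

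Before log2 was taken, each signal under its array's 50th percentile was raised to that value, the floor. A ratio is PC-3 medium minus MDA-PCa2b medium on the log2 scale, a bound where 1 array was at the floor, and absent where both were. With 1 array per group no test was possible, and the number of arrays limits the precision.

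Members with a ratio of at least 1.5-fold, the receptor, Gnas and the catalytic subunits were named with both signals, the others by range, and their other probe sets were given where they differed by over 0.5 log2 units or in sign. In each further list up to 5 genes with the largest ratios of at least 2-fold were named, and where there were none, the 2 with the largest ratios. The members and the 7 further lists were chosen with earlier results of these data known. Further values given for members go beyond this rule and were chosen after they were seen. The alternatives were other floors, log2(signal + 16), quantile normalisation, median centring, probe set means, fewer probe sets, and 1.5-fold and 3-fold thresholds. Scripts (Python 3.11.15) were tested on simulated data.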

Additional observations from a re-analysis of the deposited data

How the results depend on the processing

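No paired analysis was possible because each medium had 1 array. Pde3b, Pde4d and Pde10a kept log2 ratios below 0 under every alternative that gave a value: -1.25 to -1.20 for Pde3b, -1.20 to -1.16 for Pde4d and -1.56 to -1.38 for Pde10a. The count of pathway genes at least 2-fold lower was 3. It was 4 with a 25th percentile floor or with log2(signal + 16), where Pde1b joined, and 1 with a 75th percentile floor, where Pde3b became a bound and Pde10a was not measured. It was 5 at a 1.5-fold and 0 at a 3-fold threshold. The count at least 2-fold higher was 0, but 2 with a 25th percentile floor or with log2(signal + 16), where Rgs4 (log2 ratios 2.37 and 1.57) and Rgs16 (1.60 and 1.23) gained values. Pde1b had -1.59 and -1.16 there. Gnas and Prkar1b had 0.30 and 0.09 without probe sets that can match several transcripts, and averaging probe sets gave 0.15 for Adcy3 and -0.26 for Crem. Of all genes, 202 were at least 2-fold higher and 179 lower. These counts were 427 and 382 with a 25th percentile floor, 90 and 56 at the 75th, 527 and 436 with log2(signal + 16), 552 and 663 at 1.5-fold, and 79 and 36 at 3-fold. Of the genes in the further lists, 18 were 2-fold different, with 9 at a 75th and 25 at a 25th percentile floor, 23 with log2(signal + 16), 29 at 1.5-fold, 7 at 3-fold and 17 to 19 under the other alternatives. The median of the pathway genes stayed between -0.13 and -0.06. Averaging also turned the sign of Creb1, to -0.10. Signals near the floor limit the ratios of Pde10a, Pde1a, Pde1b, Pde3a, Rgs4 and Rgs16, among others.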
